A study of Mus musculus with 6 samples.

Results

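The 10 genes described here belong to the vascular endothelial growth factor (VEGF) system and to lymphatic endothelium, and their RNA was measured in whole embryonic lungs that had lost *Yap* from the epithelium. They were chosen by name and comprise the ligand genes *Vegfa*, *Vegfb* and *Vegfc*, the receptor genes *Flt1*, *Kdr* and *Flt4*, the neuropilin genes *Nrp1* and *Nrp2*, and the lymphatic genes *Prox1* and *Lyve1*. All 10 had a locus of their own among the 24402 loci of the authors' table. The groups were 3 wild-type C57BL/6 lung samples, called controls, and 3 samples of genotype Yap-flox/flox; Shh-Cre/+ (*Yap* mutants), from littermates at 12.5 *dpc*. In the mutants, Cre made from the *Shh* locus deletes *Yap* in the epithelium and leaves the mesenchyme and vessels with their *Yap*, and the Cre insertion also costs 1 working copy of *Shh*. The controls were labelled wild type, so floxed alleles and Cre differ between the groups together.

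VEGF-A made by the airway epithelium and other cells binds VEGFR-1 (from *Flt1*) and VEGFR-2 (from *Kdr*) on endothelial cells, and VEGFR-2 carries most of the signal for vessel growth. VEGF-C acts mainly through VEGFR-3 (from *Flt4*) and drives the sprouting of lymphatic vessels from veins. Neuropilins are co-receptors that bind VEGFs as well as class 3 semaphorins, PROX1 is the transcription factor that sets lymphatic endothelial identity, and LYVE1 is a hyaluronan receptor of lymphatic endothelium and of some macrophages.

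Each locus has 1 value per genotype, in FPKM, the fragments counted per kilobase of transcript and scaled to sequencing depth, a level that can be compared between genes. No value per library was used, so the spread between lungs and the depth behind each value are unknown, and no difference below has a replicate check. The p-values in the authors' table were not used, and none is given. Genes called the most abundant of a list are so by the mean of both values. Differences are log2 ratios of *Yap* mutant over control after adding 0.1 FPKM to both values, which understates them at low levels. The 12716 loci whose 2 values averaged 1 FPKM or more are called expressed loci. A difference of at least 1.5-fold was used as a reading mark, and 7.75% of the expressed loci were past it. In bulk lungs, fewer cells of a type and less RNA per cell cannot be told apart.

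*Yap1* itself had 76.1 FPKM in controls and 65.6 FPKM in *Yap* mutants, a log2 ratio of -0.21 over the whole locus and all cell types. The lung markers *Nkx2-1*, at 61.9 and 35.9 FPKM, and *Tbx4*, at 54.3 and 59.2 FPKM, were present in both groups, as the labelled tissue requires. A list of 13 cardiac muscle genes summed to 140.4 FPKM in controls and 1039 FPKM in *Yap* mutants, with a median log2 ratio of 3.04. The 4 Y-linked genes listed also differed, summing to 0.0306 FPKM in controls and 36.4 FPKM in *Yap* mutants. The control value thus held almost no male tissue while the mutant value held some, so sex differs between the groups together with genotype. The part of the cardiac or the sex difference in the results below was not tested, except where a value is given beside a result.

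The promoters of *Vegfa* and *Prox1* are shown because these were the ligand and the lymphatic gene with the highest ratio of mutant to control. Each is the 250 bases before the transcription start in RefSeq (GRCm38.p6), 5′ to 3′ on the strand of the gene, which is the minus strand for both. Capitals mark letters searched on both strands, which were the TEAD motif GGAATG, the HIF core as ACGTG or GCGTG, the SP1 motif GGGCGG and the TATA motif TATAAA.
Vegfa, chr17:46032378-46032627: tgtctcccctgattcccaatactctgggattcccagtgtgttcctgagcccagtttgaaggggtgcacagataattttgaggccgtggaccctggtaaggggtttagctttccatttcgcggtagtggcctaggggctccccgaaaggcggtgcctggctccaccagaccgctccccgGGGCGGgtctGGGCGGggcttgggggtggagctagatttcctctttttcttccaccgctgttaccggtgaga
Prox1, chr1:190170828-190171077: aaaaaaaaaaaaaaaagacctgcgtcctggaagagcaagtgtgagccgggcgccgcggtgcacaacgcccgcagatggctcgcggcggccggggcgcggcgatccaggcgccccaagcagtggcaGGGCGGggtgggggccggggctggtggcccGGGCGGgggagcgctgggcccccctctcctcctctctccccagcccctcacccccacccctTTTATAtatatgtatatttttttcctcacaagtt

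Of the 10 genes, 9 had a promoter in the RefSeq table. GGAATG, the motif bound by the TEAD partners of YAP, was in 0 of these 9 windows, and 12.6% of all 32851 promoter windows held it. ACGTG was in 0 of the 9 and in 16.6% of all windows, and GCGTG was in 5 of the 9 and in 28.2% of all. The *Kdr* window held GCGTG at 131 and 89 bases before the start, and those of *Flt1*, *Nrp1*, *Nrp2* and *Vegfb* held it as well. The starts used for *Kdr*, *Flt1* and *Nrp1* lay 617, 427 and 482 bases inside the RefSeq gene, so their windows lay within the gene. All 250 bases of the *Flt4* window were annotated as exon, as were 32 in *Nrp2* and 3 in *Kdr*. GGGCGG was in all 9 and in 32.7% of all windows. The 9 windows had a GC content of 59.2% to 76.4%, beside a median of 52.4% over all windows. In *Prox1*, TATAAA lay on the opposite strand 34 bases before the start, and in *Flt1* it lay 31 bases before it. These matches describe letters in a short window and say nothing about binding.

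In *Yap* mutants, 9 of the 10 genes were within 1.2-fold of the control level, and *Prox1* alone was past 1.5-fold. On the authors' scale 7 were higher and 3 were lower in *Yap* mutants, with a median log2 ratio of 0.12, beside -0.01 over all expressed loci. Of the expressed loci, 48.2% were higher in *Yap* mutants. All 10 genes passed the filter on low values, so the 1 gene past 1.5-fold is 10% of them, beside 7.75% of all loci. The order of the 10 levels was the same in both groups except that *Nrp1* and *Nrp2* traded places.

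**Figure D1:**
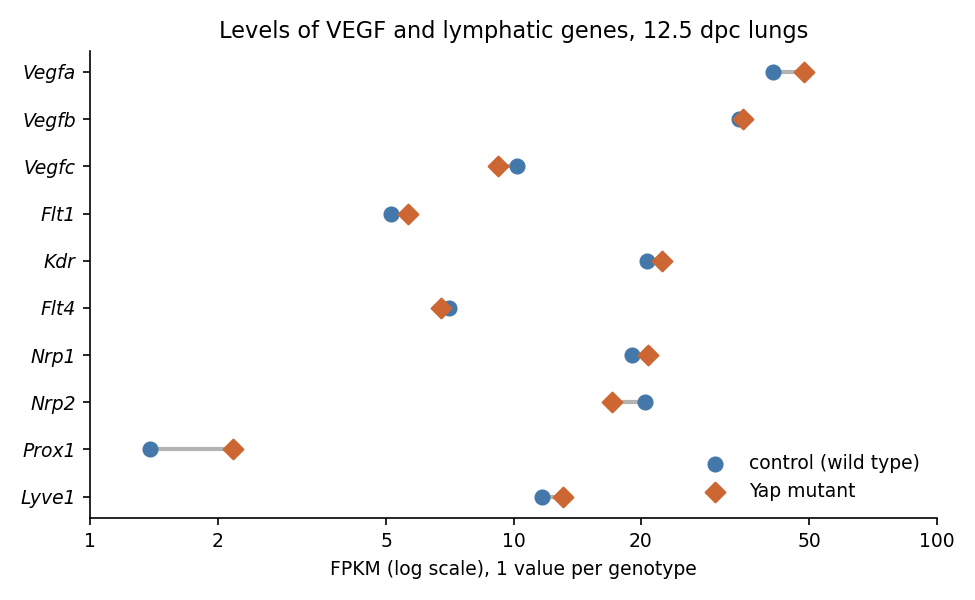
FPKM of the 10 genes on a log axis, with circles for control and diamonds for Yap mutant lungs and 1 authors' value per genotype. Levels run from 1.38 FPKM (Prox1) to 48.7 FPKM (Vegfa), and both symbols lie close together for all genes but Prox1.

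Among the ligands, *Vegfa* was the most abundant. Its locus on chromosome 17 (46016993 to 46032377, GRCm38) had 41.0 FPKM in controls and 48.7 FPKM in *Yap* mutants, a log2 ratio of 0.25 or 18.7% more. Of all expressed loci, 22.4% differed by at least as much in either direction. Among loci averaging 20 FPKM or more, 2.73% were past 1.5-fold in either direction. *Vegfa* ranked 2195 of 12716 by its control level.

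*Vegfb*, whose product binds VEGFR-1, lies on chromosome 19 (6982472 to 6987733) and had 34.2 and 34.9 FPKM, a log2 ratio of 0.03 that was -0.07 relative to the median of endothelial markers. *Vegfc*, the lymphangiogenic ligand on chromosome 8 (54077191 to 54186454), had 10.2 FPKM in controls and 9.19 FPKM in *Yap* mutants, a log2 ratio of -0.15 that was 0.45 relative to the median of epithelial markers. The level of *Vegfa* was 4.03 times that of *Vegfc* in controls and 5.30 times in mutants. On the authors' scale these 2 ligands thus differed in opposite directions, each by less than 1.5-fold.

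A further 2 ligand genes of the family were listed. *Pgf*, which encodes placental growth factor, a ligand of VEGFR-1, had 7.79 FPKM in controls and 4.51 FPKM in *Yap* mutants. Its log2 ratio of -0.77 was past 1.5-fold, and 3.30% of all loci were lower by at least 1.5-fold. *Figf*, the gene of VEGF-D, shares a locus with *Pir*, so its own value is uncertain. That locus had 9.05 and 8.60 FPKM. Over these 5 loci, *Vegfa* made up 40.1% of the summed ligand FPKM in controls and 46.0% in *Yap* mutants. *Pgf* made up 7.62% and 4.26%, while the sum itself was 102.2 and 105.9 FPKM.

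Proteins that ready VEGF-C for its receptor were read beside *Vegfc*. *Ccbe1*, a secreted protein needed for VEGF-C cleavage, had 6.77 and 8.41 FPKM, and *Adamts3*, the protease that cleaves it, had 1.85 and 2.14 FPKM. *Furin*, a proprotein convertase with many substrates including VEGF-C, had 22.1 FPKM in controls and 36.3 FPKM in *Yap* mutants. The most abundant gene of this list was *Ctsd*, a lysosomal protease gene whose product can also cleave VEGF-C, at 87.4 and 104.8 FPKM. The log2 ratio of *Furin*, 0.71, was the one past 1.5-fold among the 8 genes of this list, of which 6 were higher and 2 were lower, with a median of 0.19.

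The 3 receptor tyrosine kinase genes all differed by less than 1.1-fold. *Kdr*, on chromosome 5 (75932834 to 75978468), had 20.7 FPKM in controls and 22.5 FPKM in *Yap* mutants, a log2 ratio of 0.12. *Flt1*, on the same chromosome (147561611 to 147726300), whose product binds VEGF-A tightly and also exists as a soluble trap, had 5.14 and 5.65 FPKM and a log2 ratio of 0.13. *Flt4*, on chromosome 11 (49609679 to 49652739), had 7.03 and 6.73 FPKM and a log2 ratio of -0.06, which was 0.53 relative to the epithelial median. The make-up of the receptors was close in the 2 groups. *Kdr* gave 63.0% of their summed FPKM in controls and 64.5% in mutants, *Flt4* 21.4% and 19.3%, and *Flt1* 15.6% and 16.2%.

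Endothelial cells, in which these receptors are made, could be followed through 28 marker genes, all of them expressed loci. Of these, 19 were higher and 9 were lower in *Yap* mutants, none (0) was past 1.5-fold, and the median log2 ratio was 0.10. The most abundant by their mean were *Ramp2*, part of the adrenomedullin receptor, at 58.5 and 51.5 FPKM, and *Egfl7*, a secreted endothelial protein, at 51.0 and 54.8 FPKM. *Kdr* was 0.699 times the level of the adhesion gene *Pecam1* in controls and 0.663 times in *Yap* mutants. For *Flt4* these values were 0.238 and 0.199, and for *Flt1* 0.174 and 0.167. Set against the endothelial median in place of the authors' scale, the log2 ratio of *Kdr* was 0.01 and that of *Flt4* was -0.17.

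**Figure D2:**
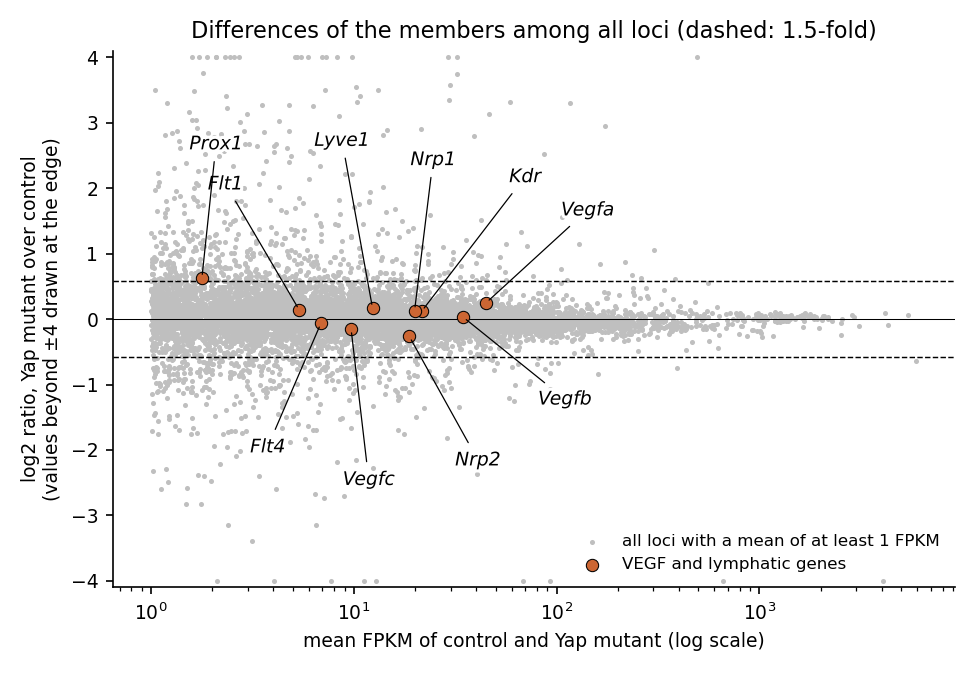
Log2 ratio of Yap mutant over control (vertical axis) against mean FPKM (log axis) for the 12716 expressed loci in grey and the 10 genes in orange. The grey cloud widens toward low levels, where Prox1 lies, and the other genes lie between the dashed lines at 1.5-fold.

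Both neuropilin genes were at about 20 FPKM, and on the authors' scale they differed in opposite directions, though relative to the epithelial median *Nrp2* too was higher, at 0.33. *Nrp1*, the VEGF-A and semaphorin co-receptor on chromosome 8 (128358676 to 128505475), had 19.1 FPKM in controls and 20.8 FPKM in *Yap* mutants, a log2 ratio of 0.12. *Nrp2*, the co-receptor found more in veins and lymphatics, on chromosome 1 (62703237 to 62818692), had 20.5 and 17.0 FPKM. Its log2 ratio of -0.26, or 16.6% less, was the lowest of the 10 genes, and 21.0% of all loci differed by at least as much. The level of *Nrp1* was 0.931 times that of *Nrp2* in controls and 1.22 times in mutants. Without values per library, it cannot be said whether this exceeds the spread between lungs. The gene model *Gm29083* lies antisense within the *Nrp2* locus and has no value of its own here. Reads of the 2 genes were separable only if strand was used in counting, which the sources do not state. The gene model *Gm37121* overlaps *Nrp2* on the same strand, also without a value, so strand could not separate its reads.

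Class 3 semaphorins are guidance cues, most of which share the neuropilins as receptors. Of their 7 genes, 4 were past 1.5-fold, beside 7.75% of all expressed loci. *Sema3a*, which signals through *Nrp1*, had 21.6 FPKM in controls and 49.9 FPKM in *Yap* mutants, a log2 ratio of 1.21. *Sema3d* had 13.5 and 27.2 FPKM, a log2 ratio of 1.01. *Sema3e*, which binds the plexin made from *Plxnd1* without a neuropilin, went the other way, with 3.42 and 0.535 FPKM and a log2 ratio of -2.47. *Sema3b* was also lower, at 1.89 and 1.03 FPKM. Both *Sema3e* and *Sema3b* averaged 1 to 5 FPKM, where 18.5% of loci were past 1.5-fold. *Sema3e* passed the filter through its control value alone. The other 3 were under 1.5-fold, with *Sema3c* at 14.4 and 20.7 FPKM, *Sema3f* at 14.8 and 16.5 FPKM and *Sema3g* at 3.03 and 3.61 FPKM.

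Of the 13 semaphorin, plexin and adaptor loci, 7 were higher and 6 were lower, with a median of 0.05 (-0.05 relative to the endothelial median). Past 1.5-fold were 3 higher and 2 lower loci, beside 4.44% and 3.30% of all expressed loci. The third higher locus was the plexin gene *Plxna4*, at 1.06 and 2.48 FPKM, which also averaged 1 to 5 FPKM. *Plxnd1*, the endothelial plexin gene, had 48.1 and 44.0 FPKM, and *Gipc1*, an adaptor of neuropilin-1, had 55.2 and 57.2 FPKM. Those were the most abundant genes of the list by their mean, while in *Yap* mutants *Sema3a* was above *Plxnd1*.

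*Prox1* was the least abundant of the 10 genes and the only one past 1.5-fold. Its locus on chromosome 1 (190118261 to 190170684) had 1.38 FPKM in controls and 2.18 FPKM in *Yap* mutants, a log2 ratio of 0.62. Among loci averaging 1 to 5 FPKM, 18.5% were past 1.5-fold in either direction, so such a ratio was more common at this level than over all expressed loci. With 1 FPKM added in place of 0.1 its log2 ratio was 0.42, under 1.5-fold. The antisense gene models *Prox1os* and *Gm28172* overlap the locus and have no value of their own here.

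PROX1 is also made in heart muscle, liver and neurons, so markers of these were read beside it. All 12 expressed cardiac muscle loci were higher in *Yap* mutants and past 1.5-fold, some of them passing the filter through their mutant values alone. At the top were *Myl7*, an atrial myosin light chain gene, at 39.3 and 305.9 FPKM, and *Myl4*, another, at 21.3 and 210.3 FPKM. *Nppa*, the atrial natriuretic peptide gene, had 0.581 and 57.9 FPKM. Of the 12 liver loci, 5 were expressed and 4 of these were higher past 1.5-fold, among them *Afp* at 5.42 and 22.3 FPKM, *Trf* at 4.92 and 19.2 FPKM and *Ttr* at 0.492 and 13.5 FPKM. *Apoa1*, the fourth, had 1.27 and 3.65 FPKM. *Ttr* passed the filter through its mutant value alone. The median log2 ratio of the 5 was 1.94, beside 0.59 for the liver loci with no filter on low values. The defining liver gene *Alb* was at 1.28 and 1.14 FPKM and the liver regulator *Hnf4a* at 0.0328 and 0.215 FPKM. In the neuroendocrine and neural list, 3 of 10 loci were higher and the other 7 lower, the median being -0.51 (0.085 relative to the epithelial median). The neuropeptide gene *Calca* was higher, at 1.29 and 3.88 FPKM. The part of heart, liver or neural cells in the *Prox1* value was not tested.

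*Lyve1*, on chromosome 7 (110850607 to 110863232), had 11.7 FPKM in controls and 13.1 FPKM in *Yap* mutants, a log2 ratio of 0.16. Macrophages can carry LYVE1 too, and of 12 macrophage loci 10 were higher and 2 were lower, none (0) past 1.5-fold, with a median of 0.17. The most abundant of them were the complement gene *C1qb*, at 12.0 and 13.6 FPKM, and the signalling adaptor gene *Tyrobp*, at 10.3 and 10.5 FPKM. The level of *Lyve1* was 8.44 times that of *Prox1* in controls and 6.00 times in *Yap* mutants.

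Other lymphatic genes had differences in both directions. Of the 21 loci listed, 17 were expressed, 7 of them were higher and 10 were lower, and the median log2 ratio was -0.12 (0.48 relative to the epithelial median). The 2 most abundant were *Gja1*, a gap junction gene active in many tissues, at 65.4 and 59.8 FPKM, and *Ramp2*. *Nr2f2*, the venous regulator that switches on *Prox1*, had 49.4 and 39.6 FPKM, and *Sox18*, another activator of *Prox1*, had 21.1 and 23.7 FPKM. *Pdpn*, which is also made in epithelium and mesothelium, had 7.17 and 6.27 FPKM.

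In this list 3 loci were past 1.5-fold. The adrenomedullin receptor gene *Calcrl* had 8.96 FPKM in controls and 25.5 FPKM in *Yap* mutants, a ratio of 2.82, and its ligand gene *Adm* had 0.585 and 2.65 FPKM, a log2 ratio of 2.01. Their partner *Ramp2* differed by less than 1.5-fold. *Tbx1*, a transcription factor gene of pharyngeal tissue and of lymphatic endothelium, was lower, at 11.7 and 1.23 FPKM.

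**Figure D3:**
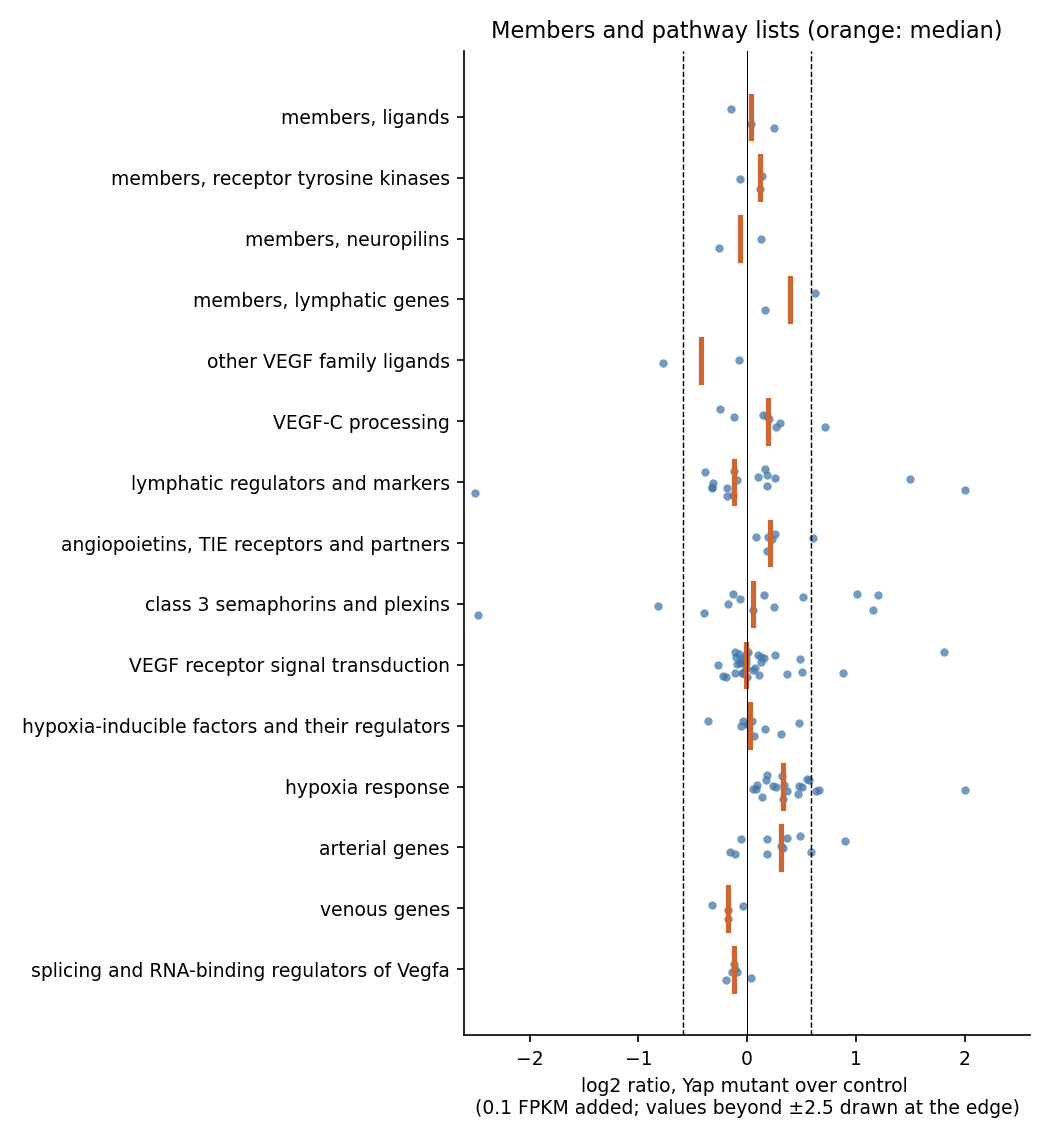
Log2 ratio of Yap mutant over control for each expressed locus, by list, with blue points for loci, orange bars for list medians and dashed lines at 1.5-fold. The expressed loci of the hypoxia response list lie above 0 (median 0.33), the lower Car9 locus being left out by the filter, while semaphorins spread from -2.47 to 1.21.

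The angiopoietin and TIE system, which steadies new vessels, leaned higher without large differences. All 6 expressed loci were higher in *Yap* mutants, with a median of 0.21. *Tie1*, an endothelial receptor gene, had 24.2 and 28.9 FPKM, and *Angpt1*, the TIE2 ligand gene, had 12.2 and 12.9 FPKM. *Svep1*, which encodes an extracellular matrix protein needed for lymphatic remodelling, had 10.2 and 15.6 FPKM and was the 1 locus past 1.5-fold. Set against the endothelial median, the median of the list was 0.11. *Tie1*, *Tek* and *Ptprb* are also in the endothelial marker list, so the list was partly set against itself.

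On the authors' scale arterial and venous genes leaned apart, and the difference between the 2 lists was not tested. Of 11 arterial loci, 8 were higher and 3 were lower, with a median of 0.32, and the gap junction gene *Gja5*, at 9.47 and 17.8 FPKM, and the guidance receptor gene *Unc5b*, at 16.2 and 24.4 FPKM, were past 1.5-fold. The most abundant arterial gene was *Efnb2*, at 25.4 and 28.9 FPKM. *Gja5* is also expressed in atrial heart muscle, whose markers were higher in the same samples. The 4 venous loci were all lower, with a median of -0.18 (0.42 relative to the epithelial median), and the most abundant of them were *Ephb4*, at 60.6 and 59.2 FPKM, and *Nr2f2*. No venous locus (0) was past 1.5-fold. Whether the *Nr2f2* values came from veins or from other cells of the lung was not tested.

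Downstream of the receptors, most genes of the signalling list were near their control level. Of 34 loci, 14 were higher and 20 were lower, and the median log2 ratio was -0.01, which was above 0 when the summed FPKM of both groups was made equal (0.03) and relative to the epithelial median (0.58). The most abundant were the adaptor gene *Grb10*, at 385 and 337 FPKM, and *Cdc42*, a small GTPase gene, at 274 and 273 FPKM. *Esm1*, a gene that VEGF induces in endothelial tip cells, had 1.18 FPKM in controls and 4.39 FPKM in *Yap* mutants, a log2 ratio of 1.81. *Hspb1*, a small heat shock protein gene also expressed in muscle, had 16.3 and 30.2 FPKM. Both were past 1.5-fold, as were 4.44% of all loci in that direction.

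*Vegfa* is a target of hypoxia-inducible factors, so the genes of that response were read beside it. Of the 21 hypoxia response loci, counted before any filter on low values, 20 were higher in *Yap* mutants and 1 was lower, with a median of 0.33. The lower one was 1 of the 2 loci of *Car9*, a carbonic anhydrase gene, at 1.04 and 0.702 FPKM, and it did not pass the filter. *Adm* and *Car12*, below 1 FPKM in controls, passed it through their mutant values. The most abundant were the glycolytic enzyme genes *Ldha*, at 451 and 661 FPKM, and *Eno1*, at 473 and 499 FPKM. *Adm*, *Ankrd37* and *Car12* were past 1.5-fold, the latter 2 at 5.70 and 9.06 FPKM and at 0.951 and 1.53 FPKM. Glycolytic genes are also abundant in heart muscle, whose markers were higher in the same samples, and the part of such cells was not tested.

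The factors themselves had differences in both directions. *Hif1a* had 51.7 and 53.5 FPKM and *Epas1*, the HIF subunit prominent in endothelium, had 4.68 and 5.28 FPKM. *Hif3a*, an alpha subunit gene, was higher, at 16.6 and 23.1 FPKM (log2 ratio 0.48), and *Arnt2*, a gene of their dimer partners, was lower, at 14.4 and 11.1 FPKM (-0.36). The oxygen sensor gene *Egln2* had 40.7 and 41.0 FPKM. Of the 10 loci of factors and regulators, 7 were higher and 3 were lower, none (0) past 1.5-fold, with a median of 0.03 (-0.07 relative to the endothelial median). In a list of 6 genes whose products act on *Vegfa* RNA, 5 were lower and 1 was higher, with a median of -0.12 (0.48 relative to the epithelial median). The splicing factor genes *Hnrnpl*, at 259 and 242 FPKM, and *Srsf1*, at 212 and 192 FPKM, were the most abundant.

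**Figure D4:**
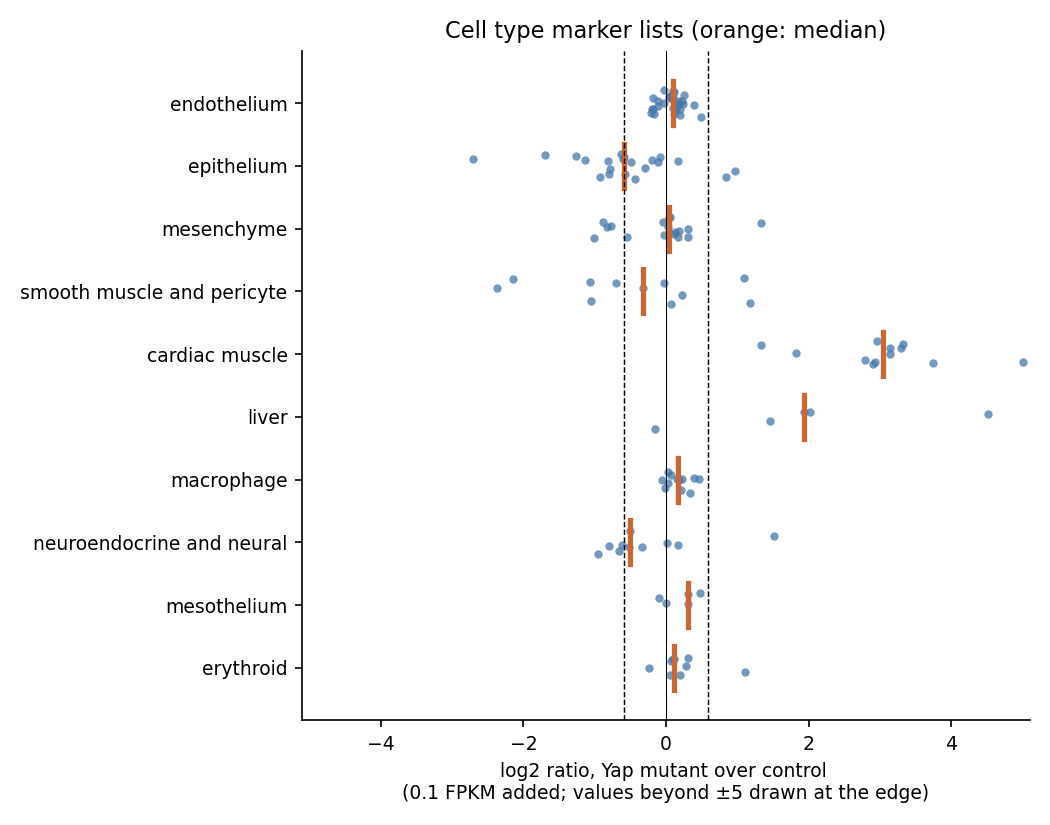
Log2 ratio of Yap mutant over control for each expressed marker locus, by cell type, with blue points for loci, orange bars for medians and dashed lines at 1.5-fold. Endothelium (median 0.10) and macrophage (0.17) lie near 0, epithelium lies lower (-0.60) and cardiac muscle higher (3.04).

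The tissues around the vessels differed in their own markers. The epithelial list, which marks a main source of VEGF-A, had 18 of 21 loci lower in *Yap* mutants and a median of -0.60, and 11 lower and 2 higher loci were past 1.5-fold, while *Vegfa* was higher. Mesenchymal markers had a median of 0.04 (-0.07 relative to the endothelial median), but 4 lower and 1 higher of their 17 loci were past 1.5-fold. The transcription factor gene *Foxf1* had 83.5 and 41.6 FPKM, *Wnt2* had 46.5 and 27.3 FPKM, and the growth factor gene *Fgf10* had 10.4 and 26.6 FPKM. Erythroid markers had a median of 0.12. The values of the 10 genes depend on what they are set against. The epithelial loci ran from -2.71 (*Shh*, which carries Cre) to 0.97 (*Sftpc*), with *Cdh1* at -0.20 and *Spint2* at -0.08. Whether their median follows the amount of epithelium was not tested, so ratios relative to it are not corrected for cell amount. Relative to the epithelial median, all 10 genes were higher and 7 were past 1.5-fold, but so were 52.0% of all loci. Relative to the endothelial median, 6 of the 10 were higher and none (0) was past 1.5-fold, with *Prox1* at 0.52.

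**Figure D5:**
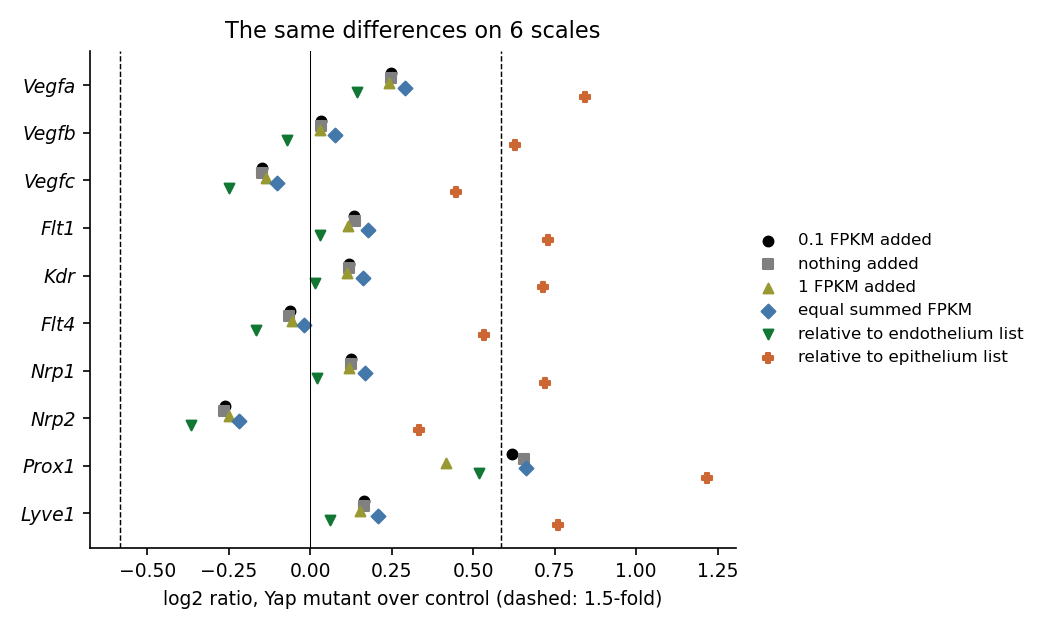
Log2 ratio of Yap mutant over control for the 10 genes under 6 ways of scaling, with dashed lines at 1.5-fold. Vegfb, Vegfc, Flt4 and Nrp2 change sign between scales, while Vegfa, Flt1, Kdr, Nrp1, Prox1 and Lyve1 are above 0 on each of the 6. The amount added to both values cannot change a sign, and equal summed FPKM and the epithelium scale only raise ratios. Only the endothelium scale could thus turn a ratio above 0, and there Kdr is at 0.015, Nrp1 at 0.021 and Flt1 at 0.030.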

How the data were processed

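RNA from whole lungs of wild-type and *Yap* mutant embryos, 3 samples of each, was sequenced as stranded paired-end libraries. The number of embryos behind a sample is not stated. The paper names the Maverix platform for alignment and comparison. The submitters' processing notes name TopHat, Cuffdiff and mm10, without versions. The authors deposited 1 FPKM value per locus and genotype. The unit was inferred from the Cuffdiff layout of the table. The depth of the libraries is unknown, so no error can be put on a value. The same table holds the authors' log2 fold changes and p-values, and a second table lists the loci they call changed, and none of these was used.

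Log2 ratios were computed with 0.1 FPKM added, over loci averaging 1 FPKM or more, and no test across libraries was possible. Table starts count from 0, so 1 was added. On GRCm38 all 10 loci overlapped the like-named RefSeq gene, with 4 starts and 4 ends identical. Gene models overlapping a locus were taken from GENCODE M21. The 10 genes and all lists were chosen with earlier results of these data known. Named are the 10 genes, list loci past 1.5-fold, the 2 most abundant loci of a list, and others chosen after their values were seen. The calculation was tested on simulated data, with changes placed only at loci well above the level of *Prox1* and with little noise. That test checks the arithmetic and not calls at low levels. Python 3.11.15, numpy 2.4.6, pandas 2.3.3 and matplotlib 3.10.9 were used.

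Alternatives were other pseudocounts, folds, filters and scalings.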

Additional observations from a re-analysis of the deposited data

How the results depend on the processing

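No paired analysis was possible because the table holds 1 value per genotype, and for the same reason no replicate could be left out. The number of the 10 genes past the fold, 1 as reported, was 0 with 1 FPKM added, 0 relative to the endothelium median, 0 at a fold of 2 and 0 among loci averaging 5 FPKM or more, and it was 7 relative to the epithelium median. The median log2 ratio of the 10 genes, 0.12 as reported, was 0.018 relative to the endothelium and 0.72 relative to the epithelium. The number of all loci past the fold, 985 as reported, was 2090 at a difference of 25% or more, 437 at a fold of 2, 2569 with no filter on low values, 399 among loci averaging 5 FPKM or more and 6618 relative to the epithelium. Of the pathway lists beyond the 10 genes, 6 had a median above 0 as reported and 11 relative to the epithelium. Loci higher in *Yap* mutants made up 57.4% of the 985 loci past the fold, 45.1% of those past it relative to the endothelium and 98.4% relative to the epithelium. With no value per library, a move of under 0.1 on the log2 scale, or under 5 percentage points for a share, was taken as no move. The single log2 ratios and list medians moved by more than that in 84 of 322 cases. The endothelium and epithelium settings shift every ratio by 1 constant, -0.104 and 0.595, so all of them moved there by construction. No value past 1.5-fold changed its sign. These shifts could bring that about only just past the mark, since 0.595 slightly exceeds the log2 of 1.5, which is 0.585. The epithelium median itself, at -0.595, became 0 on its own scale. Among the 10 genes, *Vegfb*, *Vegfc*, *Flt4* and *Nrp2*, all under 1.5-fold, did change sign. Depth is unknown, so what it limits could not be measured.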

Other observations

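Smooth muscle and pericyte genes, which mark the cells that wrap vessels and airways, were lower in *Yap* mutants at 7 of 11 loci and higher at 4, with a median log2 ratio of -0.33 (0.27 relative to the epithelial median). Past 1.5-fold were 5 lower and 2 higher loci. *Acta2*, smooth muscle actin, had 125.2 FPKM in controls and 59.9 FPKM in *Yap* mutants, and *Actg2*, an actin of visceral smooth muscle, had 68.0 and 13.1 FPKM. *Rgs5*, a pericyte gene, had 13.9 and 8.46 FPKM, while *Notch3*, a receptor gene of mural cells, had 32.0 and 31.3 FPKM. *Des*, which is shared with heart muscle, had 17.6 and 37.7 FPKM, and *Abcc9*, a potassium channel subunit gene of pericytes and heart, had 0.767 and 1.87 FPKM.

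Blood cell genes were read as well. Of 9 expressed erythroid loci, 8 were higher and 1 was lower, with a median of 0.12, and the list summed to 5933 FPKM in controls and 6357 FPKM in *Yap* mutants. Mesothelial markers were higher at 4 of 5 loci, with a median of 0.31 and none (0) past 1.5-fold.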
